A study of Mus musculus with 9 samples.

Results

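The mitosis and G2/M genes are 38 genes, taken as a named set from the 38924 genes in the table, whose products carry a cell from the end of DNA replication through chromosome segregation to the splitting of the daughter cells. All 38 were found by symbol. None of them passed the test in either knockdown with all libraries, and their levels moved together from library to library within groups. Their transcripts were counted by bulk RNA sequencing of primary cardiac fibroblasts. The cells came from RosaCas9-EGFP mice of 8 to 10 weeks on a C57BL/6 background, which carry Cas9 together with a green fluorescent marker. Cells were grown for 3 days, sorted as CD45-CD31-CD90+, replated, and transfected with guide RNAs after another 6 days, at 80 to 90% confluency. RNA was collected 72 hr later. Control cells received scrambled guides, Gata4 KD cells 2 guides against Gata4 and Tbx20 KD cells 2 guides against Tbx20, with 3 libraries per group, named a, b and c. All 3 groups carried Cas9 and went through transfection, and no cells were selected for the edit in the protocols read here, so each library may mix edited and unedited cells.

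Total counts were 31214828 to 41950397 per library. The deposited values are expected counts per gene, shown here as CPM, in which each library is scaled to a common total with TMM factors over the 9 libraries. Gata4 was at 155 to 167 CPM in control and 46.7 to 65.5 CPM in Gata4 KD, and fell by 1.55 on the log2 scale (SE 0.12, edgeR quasi-likelihood test, adjusted p = 0.00272). Tbx20 was at 720.1 to 1276 CPM in control and 319.9 to 428 CPM in Tbx20 KD, so that the groups did not overlap, but its log2 fold change of -1.35 (SE 0.21) had an adjusted p of 0.748 in that test, against 3.18e-08 with DESeq2 and 2.38e-06 with an exact test. Gata4 KD c, with low levels of nearly all members, and Tbx20 KD a, with high levels, stood apart from the other libraries of their groups. Each member had at least 292 counts in every library, and all 38 passed the filter on low counts in each comparison.

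Cells enter mitosis when CDK1, bound to a B-type cyclin, becomes active. Spindle kinases and kinesin motors then build the spindle, checkpoint kinases hold the cell until every kinetochore is attached, and a ubiquitin ligase ends mitosis by marking cyclin B for destruction. The transcripts of these genes build up together in late S and G2 phase and are low in cells that have left the cycle. Adult fibroblasts in the heart divide little, whereas fibroblasts in culture re-enter the cycle. The level of such a transcript in a whole culture reflects both the share of cells in that window and the amount of RNA per cell, and fewer cells in the window and less RNA per cell cannot be told apart in these libraries.

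Many promoters of this class hold a cell cycle homology region (CHR), the letters TTTGAA or TTCGAA close to the start, with CCAAT boxes bound by NF-Y upstream. The windows of 250 bases before to 50 bases after the annotated start were taken from RefSeq on GRCm38.p6 for 33 of the 38 members, and positions are counted from 0 at that start. A set of 7 windows is shown from position -130 to 19, because they differ in the arrangement of these letters. Capitals mark CHR letters and CCAAT on either strand (TTCAAA and ATTGG on the other strand). Here CHR and CCAAT box name matches of these letters alone, wherever they lie in the window. Ccnb2 (chr9:70421535-70421684, minus strand) and Cdk1 (chr10:69352893-69353042, minus strand) differ in layout, with 3 CCAAT boxes ahead of a CHR at position 4 in Ccnb2 and 2 CHR elements, at -71 and -15, among reverse-strand CCAAT boxes in Cdk1. Cdc20 (chr4:118437324-118437473, minus strand) and Prc1 (chr7:80294321-80294470, plus strand) hold 1 CHR just upstream of the start, and Kif11 (chr19:37376252-37376401, plus strand) holds its CHR on the other strand. Psrc1 (chr3:108383674-108383823, plus strand) holds the palindrome TTCGAA, and Ccnb1 (chr13:100786467-100786616, minus strand) holds 2 CCAAT boxes and no CHR in these letters.
Ccnb2: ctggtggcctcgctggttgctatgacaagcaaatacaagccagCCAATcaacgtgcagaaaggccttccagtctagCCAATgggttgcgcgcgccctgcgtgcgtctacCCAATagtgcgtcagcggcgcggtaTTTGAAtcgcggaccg
Cdk1: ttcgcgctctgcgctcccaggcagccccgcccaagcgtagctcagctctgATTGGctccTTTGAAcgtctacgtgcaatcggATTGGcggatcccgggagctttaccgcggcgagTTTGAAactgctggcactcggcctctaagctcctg
Cdc20: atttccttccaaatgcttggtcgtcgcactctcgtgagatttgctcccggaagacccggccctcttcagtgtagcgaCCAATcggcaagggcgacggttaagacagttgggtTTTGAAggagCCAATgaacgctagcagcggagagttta
Prc1: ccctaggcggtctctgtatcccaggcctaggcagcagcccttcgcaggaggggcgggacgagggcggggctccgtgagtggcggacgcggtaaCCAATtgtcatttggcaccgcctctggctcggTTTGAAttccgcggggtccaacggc
Kif11: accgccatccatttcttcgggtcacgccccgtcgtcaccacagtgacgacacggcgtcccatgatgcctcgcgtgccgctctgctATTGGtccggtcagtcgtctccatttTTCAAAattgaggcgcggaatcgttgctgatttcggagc
Psrc1: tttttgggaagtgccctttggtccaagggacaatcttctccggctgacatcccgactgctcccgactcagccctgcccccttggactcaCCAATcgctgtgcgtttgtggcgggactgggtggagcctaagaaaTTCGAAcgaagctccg
Ccnb1: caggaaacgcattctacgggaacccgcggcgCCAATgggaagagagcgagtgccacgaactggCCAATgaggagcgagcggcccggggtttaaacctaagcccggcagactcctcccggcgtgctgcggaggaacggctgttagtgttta

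TTTGAA or TTCGAA was found in 27 of the 33 member windows (81.8%), against 13.7% of the 10888 other tested genes with a window and 19.4% of all 26992 other genes. CCAAT was found in 26 (78.8%), against 38.7% and 37.9%, and both kinds together in 23 (69.7%), against 5.73% and 7.63%. A CHR began between positions -30 and 44 in 24 members (72.7%) and in 2.61% of the other tested genes, a range set after the positions were seen. The other searches covered both strands of the same windows. The E2F core GCGGGAA was in 0 of 33 member windows (exact 95% interval 0 to 10.6%) and 8.34% of the other tested genes. The GATA motif AGATAA or TGATAA was in 4 (12.1%) against 9.80%, and the T-box core GTGTGA in 3 (9.09%) against 10.7%. Birc5, Nuf2 and Nusap1 held neither CHR nor CCAAT letters. CHR and CCAAT letters shared a base only in Cdca8. These matches describe letters in a window and were not tested as binding sites.

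**Figure D1:**
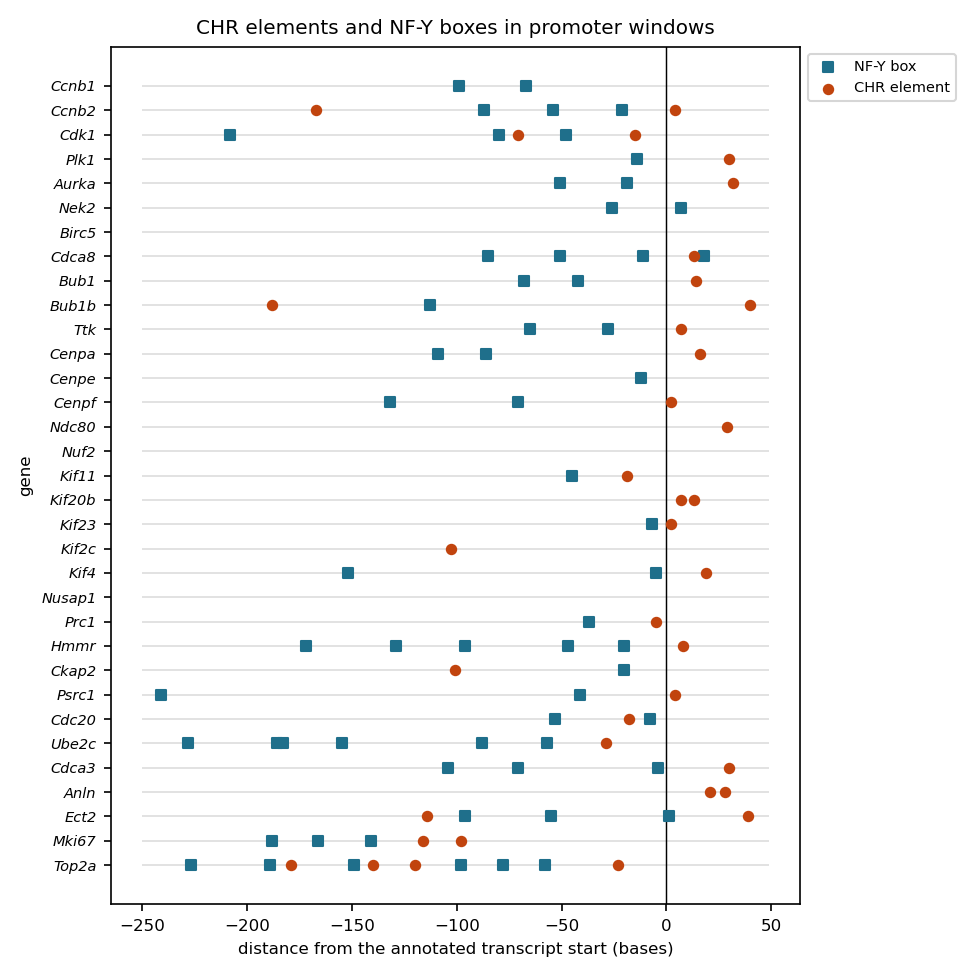
Positions of CHR elements (TTTGAA or TTCGAA, circles) and NF-Y boxes (CCAAT, squares) in the promoter windows of 33 members. They are in bases from the annotated transcript start, which is the vertical line. Both are letter matches and were not tested as binding sites. In 24 members a CHR element begins between -30 and 44.

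Per kilobase of the longest transcript, the members spanned a wide range of levels in control cells. Top2a, the topoisomerase that untangles sister chromatids, was highest at 50.4 ± 0.97 CPM per kb (SD, n = 3), and its 3 libraries (49.3 to 51.1) lay above those of Anln, an organizer of the contractile ring, at 43.4 ± 1.49 CPM per kb. Ckap2, Prc1, Ccnb1, Kif20a and Cdc20 followed at 40.5 ± 1.98, 40.0 ± 2.60, 35.8 ± 2.10, 35.4 ± 4.94 and 33.7 ± 4.92 CPM per kb, and neighbours among these 5 overlapped. Cdc25c, the phosphatase that activates CDK1, was lowest at 3.53 ± 0.15 CPM per kb, with all 3 libraries (3.44 to 3.71) below those of Ttk, Cdca8, Ndc80 and Cenpa, which overlapped one another at 7.68 to 8.49 CPM per kb. In the middle of the order, Bub1b and Cdca3, ranked 19 and 20 of the 38, were at 17.0 ± 1.11 and 15.7 ± 3.11 CPM per kb. The order at the top depended on the length used. Per kilobase of the union of exons, Ckap2 was highest at 32.7 ± 1.59 CPM per kb, followed by Cdc20 at 32.3 ± 4.72 and Kif20a at 29.98 ± 4.18, while Top2a was at 29.2 ± 0.56 and Anln at 22.03 ± 0.76. Cdc25c was lowest by either length. Summed over members, the transcripts took 0.232% to 0.336% of all counts of a library.

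With all 3 libraries per group, no member passed the threshold of an adjusted p of 0.05 in any comparison. In Gata4 KD against control, 0 of 38 members were called by the edgeR quasi-likelihood test, while 0.38% of the 14468 genes tested were. In Tbx20 KD against control it was 0 of 38 against 0.00687% of 14547 genes. The target Tbx20 itself was not called there (log2 fold change -1.35, adjusted p = 0.748 by the same test), so that 0 says little about the members. In Gata4 KD against Tbx20 KD it was 0 of 38 against 1.44% of 14477 genes. DESeq2, limma-voom and the edgeR exact test also called 0 members in each comparison. Of all genes tested, DESeq2 called 273, 10 and 761 in the 3 comparisons, limma-voom 48, 1 and 196, and the exact test 250, 8 and 729. With so few genes called in Tbx20 KD against control, the 0 of these tools says little there either. Even without adjustment, 0 members had a p under 0.05, beside 8.54%, 2.69% and 16.7% of all genes in the 3 comparisons. The 3 libraries of one group overlapped those of the other for every member in every comparison, whereas 13.8%, 6.74% and 23.0% of all genes had groups that did not overlap. The 2 knockdowns share the control libraries, and all 3 comparisons share libraries pairwise, so their values are not independent. The members are not independent of one another either, since they moved together within groups (median pairwise Pearson r 0.83). The 0 of 38 is therefore not 38 separate results to set against the shares of all genes.

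The 95% intervals, taken gene by gene from the fits with no adjustment, bound the changes that these libraries leave possible. In all 3 comparisons the intervals of all 38 members held 0 and lay within a 1.5-fold change in either direction. In Gata4 KD against control the outermost bounds were a decrease of 32.7%, for Aurka, and 36.4% higher, for Bub1. In Tbx20 KD against control they were a decrease of 28.9%, for Cdca8, and 28.8% higher, for Cdca3. In Gata4 KD against Tbx20 KD they were a decrease of 29.8%, for Aurka, and 39.1% higher, for Mki67.

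**Figure D2:**
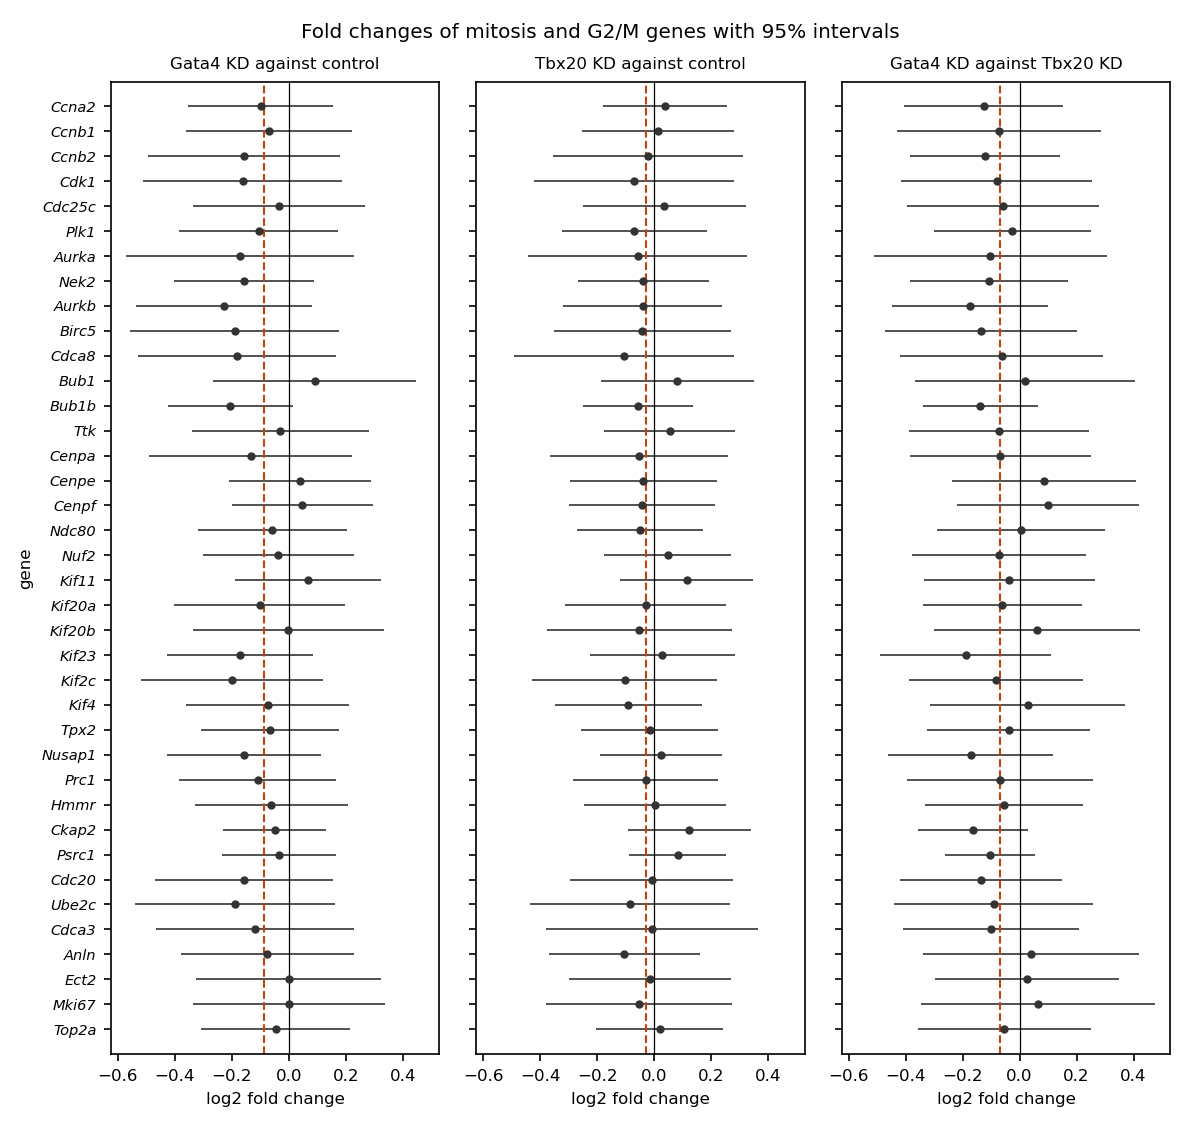
Log2 fold change (points) with its 95% interval (bars) for each of the 38 members in the 3 comparisons, 3 libraries against 3. The dashed line is the median of the members, at -0.09, -0.03 and -0.07 from left to right, and every interval crosses the solid line at 0.

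Taken as a list, the members leaned slightly below control in Gata4 KD, with 32 of 38 lower, 6 higher and a median log2 fold change of -0.09, against -0.02 over all genes tested. The lean rested on 1 library. Without Gata4 KD replicate c the median was 0.03 with 24 members higher, and the lowest median with another library left out was -0.14. In Tbx20 KD the median was -0.03 with 25 of 38 lower, against a median of all genes of -0.00217, and it ranged from -0.14 without Tbx20 KD replicate a to 0.04 without Tbx20 KD replicate c. In Gata4 KD against Tbx20 KD the median was -0.07 with 29 of 38 lower, and it was 0.04 without Gata4 KD replicate c and 0.06 without Tbx20 KD replicate a. The sign of the list's median therefore depended on single libraries in all 3 comparisons.

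The comparison between the knockdowns changed when both libraries that stood apart, Gata4 KD c and Tbx20 KD a, were left out together. With 2 libraries against 2, 10 of 38 members were called higher in Gata4 KD than in Tbx20 KD by the edgeR quasi-likelihood test, beside 20.3% of the 14467 genes tested, in either direction. They were Anln, Cenpe, Kif20b, Mki67, Kif4, Cenpf, Bub1, Ect2, Aurka and Ccnb1. The median log2 fold change of the members was 0.16 with 35 of 38 higher, against -0.00600 over all genes. Mki67 had a log2 fold change of 0.38 (SE 0.06) with an adjusted p of 0.00447 by edgeR, and Anln 0.33 (SE 0.05) with an adjusted p of 0.00356 by edgeR. The libraries left out were chosen after their levels of these same members were seen, 1 low in Gata4 KD and 1 high in Tbx20 KD. Leaving them out moves the members toward higher in Gata4 KD and narrows the spread by construction. Neither the count nor the p-values therefore test a difference in these genes.

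Of the genes that switch mitosis on, Ccnb1 encodes cyclin B1, the main partner of CDK1. Its level was 86.0, 86.0 and 95.1 CPM in control libraries a, b and c, 94.6, 92.0 and 68.0 CPM in Gata4 KD and 106, 82.2 and 79.1 CPM in Tbx20 KD. The lowest and the highest value both came from knockdown cells, Gata4 KD c and Tbx20 KD a, and the controls lay between them. The log2 fold change was -0.07 (SE 0.13, 95% interval -0.36 to 0.22) in Gata4 KD, with an adjusted p of 0.925 by the edgeR quasi-likelihood test, and 0.01 (SE 0.12, 95% interval -0.25 to 0.28) in Tbx20 KD, with an adjusted p of 1 by edgeR. Without Gata4 KD c the first turned to 0.09, and without Tbx20 KD a the second turned to -0.13. Ccnb1 shared 18.9% of its 75-base transcript windows with Ccnb1-ps and 4 predicted genes, so its reads may have been divided among copies, which holds for no more than 4.4% of the windows of any other member. Cdk1 itself was at 134, 106 and 152 CPM in control, 131, 122 and 97.5 CPM in Gata4 KD and 148, 112 and 110.2 CPM in Tbx20 KD. Here control c was the highest of the 9 libraries, and control b was the second lowest. Ccnb2, a second B-type cyclin, was lowest in control b, at 29.2 CPM, and Gata4 KD c was next at 29.3 CPM. Ccna2, the cyclin of S and G2 phase, ranged from 57.2 to 83.8 CPM, and Cdc25c was lowest in Gata4 KD c, at 8.19 CPM. The 5 genes of this role had a median log2 fold change of -0.10 in Gata4 KD and 0.01 in Tbx20 KD.

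The kinases that mature the spindle poles and drive entry were also lowest in Gata4 KD c. Plk1, which acts on centrosomes, kinetochores and cytokinesis, was at 61.1, 51.4 and 63.9 CPM in control, 61.0, 56.3 and 46.8 CPM in Gata4 KD and 63.3, 51.9 and 51.5 CPM in Tbx20 KD. Its highest value was in control c and its lowest in Gata4 KD c. Aurka, the Aurora kinase of the spindle poles, had the widest spread of any member within groups, with a pooled SD of 0.28 on the log2 scale, and ran from 37.0 CPM in Gata4 KD c to 64.7 CPM in control c. Nek2, which splits the centrosomes, ran from 33.2 to 47.9 CPM.

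The chromosomal passenger complex, which corrects faulty attachments of chromosomes to the spindle, had the lowest median of the roles in Gata4 KD, at -0.19 on the log2 scale. Aurkb, its kinase, was at 31.8, 25.2 and 32.7 CPM in control, 28.1, 26.9 and 21.8 CPM in Gata4 KD and 32.6, 26.7 and 27.2 CPM in Tbx20 KD. Control b lay below 2 of the Gata4 KD libraries, so the groups overlapped. Among all members Aurkb had the lowest fold change in Gata4 KD, at -0.23 (SE 0.14, 95% interval -0.53 to 0.08) on the log2 scale, with an adjusted p of 0.727 by the edgeR quasi-likelihood test. Cdca8, which encodes borealin, was at 26.4, 21.9 and 31.8 CPM in control, 26.5, 23.8 and 20.4 CPM in Gata4 KD and 30.2, 21.2 and 22.3 CPM in Tbx20 KD. It was the lowest member in Tbx20 KD, with a log2 fold change of -0.11 (SE 0.17, 95% interval -0.49 to 0.28) and an adjusted p of 1 by edgeR, and it turned to 0.04 without control c. The control libraries of Cdca8 alone spanned 21.9 to 31.8 CPM and held every Tbx20 KD value but 1. Birc5, which encodes survivin, reached 51.6 CPM in control c and was lowest in Gata4 KD c.

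Bub1 and Ttk, of the 3 spindle checkpoint kinases, were lowest among controls in control c, while Bub1b was highest there, at 65.4 CPM against 64.2 and 57.8 CPM in controls a and b. Bub1, which recruits checkpoint proteins to kinetochores, was at 43.3, 44.6 and 37.2 CPM in control, 48.5, 51.2 and 33.8 CPM in Gata4 KD and 50.9, 40.3 and 40.3 CPM in Tbx20 KD. It was lower in control c than in the other controls, the reverse of Cdk1 and Aurka. Bub1 had the highest fold change among members in Gata4 KD, at 0.09 (SE 0.16, 95% interval -0.27 to 0.45) on the log2 scale, with an adjusted p of 0.917 by the edgeR quasi-likelihood test, and it turned to -0.02 without Gata4 KD replicate b. Bub1b, which encodes the checkpoint protein BubR1, had the smallest unadjusted p of any member in Gata4 KD, with a log2 fold change of -0.21 (SE 0.10) and an adjusted p of 0.636 by edgeR. Ttk, the kinase MPS1 that starts the checkpoint signal, ran from 17.5 to 25.3 CPM.

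Genes of the centromere and kinetochore lay close to control in both knockdowns, with role medians of -0.04 and -0.04 on the log2 scale. Cenpf, a large protein of the outer kinetochore, was at 96.6, 98.2 and 93.1 CPM in control, 101, 112 and 84.1 CPM in Gata4 KD and 109.7, 84.4 and 83.4 CPM in Tbx20 KD. Its lowest 3 values were Tbx20 KD c, Gata4 KD c and Tbx20 KD b, and its highest was Gata4 KD b. Cenpf had the highest fold change among members in Gata4 KD against Tbx20 KD, at 0.10 (SE 0.14, 95% interval -0.22 to 0.42) on the log2 scale, with an adjusted p of 0.757 by edgeR. Cenpa, the histone H3 variant that marks the centromere, was lowest in Gata4 KD c, at 24.1 CPM, and highest in control c. Cenpe, the motor that carries chromosomes to the spindle equator, ran from 97.6 to 130.2 CPM. Ndc80 and Nuf2, partners in the complex that grips microtubules, ran from 24.8 to 33.5 and from 31.3 to 44.1 CPM.

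Among the kinesin motors, Kif11, which pushes the spindle poles apart, was at 66.8, 72.4 and 69.1 CPM in control, 80.7, 76.9 and 60.7 CPM in Gata4 KD and 85.2, 72.7 and 65.9 CPM in Tbx20 KD. The 3 controls were close together, and the knockdown libraries lay on both sides of them. Kif23, a motor of the central spindle needed for cytokinesis, was at 47.6, 46.0 and 52.1 CPM in control, 45.7, 47.0 and 36.6 CPM in Gata4 KD and 57.4, 45.7 and 44.2 CPM in Tbx20 KD. It was the lowest member in Gata4 KD against Tbx20 KD, with a log2 fold change of -0.19 (SE 0.13, 95% interval -0.49 to 0.11) and an adjusted p of 0.499 by edgeR, and turned to 0.04 without both Gata4 KD c and Tbx20 KD a. Apart from the low Gata4 KD c and the high Tbx20 KD a, its libraries lay between 44.2 and 52.1 CPM. Kif20a and Kif2c, the latter a depolymerase of microtubule ends, were highest in control c at 147 and 65.6 CPM, whereas Kif20b was highest in control b at 74.6 CPM. Kif4, a chromosome-bound motor on the X chromosome, ran from 46.0 to 65.6 CPM.

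Proteins that bind spindle microtubules included the member most typical of the set and the one least like it. Tpx2, which activates Aurora A on the spindle, was at 132, 125 and 139.7 CPM in control, 141, 129 and 109 CPM in Gata4 KD and 151, 119 and 119.7 CPM in Tbx20 KD. Prc1, the crosslinker of the central spindle, had the highest correlation with the mean of the other members over the 9 libraries (Pearson r = 0.998), and ran from 112 CPM in Gata4 KD c to 166 CPM in Tbx20 KD a. Ckap2, a stabilizer of spindle microtubules, was at 101, 111 and 104 CPM in control, 106, 103 and 95.9 CPM in Gata4 KD and 127, 109.7 and 104 CPM in Tbx20 KD. It was the highest member in Tbx20 KD, with a log2 fold change of 0.12 (SE 0.09, 95% interval -0.09 to 0.34) and an adjusted p of 1 by edgeR, and the high value came from Tbx20 KD a. Psrc1, a microtubule-associated protein, was at 42.8, 40.6 and 44.98 CPM in control, 41.5, 39.0 and 44.9 CPM in Gata4 KD and 43.4, 47.4 and 44.1 CPM in Tbx20 KD. It was the only member at its highest of the group in Gata4 KD c and at its lowest of the group in Tbx20 KD a, and its correlation with the mean of the other members was -0.28. It also had the smallest spread within groups, with a pooled SD of 0.08 on the log2 scale. Hmmr and Nusap1, both microtubule-binding, ran from 66.8 to 92.8 and from 27.8 to 41.5 CPM.

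The members tied to ubiquitin ligases were Cdc20, an activator of the ligase APC/C that ends mitosis, Ube2c, the enzyme that hands APC/C ubiquitin, and Cdca3, an F-box-like protein linked to mitotic entry. Cdc20 was at 61.9, 50.9 and 68.4 CPM in control, 61.0, 55.4 and 46.2 CPM in Gata4 KD and 68.1, 55.1 and 55.3 CPM in Tbx20 KD. Control c and Tbx20 KD a were nearly level at the top, and control b was the second lowest. Ube2c ran from 42.9 CPM in Gata4 KD c to 69.4 CPM in control c. Cdca3 was lowest in control b, at 24.9 CPM, and highest in control c, at 37.2 CPM. Of the cytokinesis genes, Anln was at 195, 197 and 207 CPM in control, 210.0, 209.8 and 149 CPM in Gata4 KD and 220.4, 166 and 166 CPM in Tbx20 KD, with 2 of 3 Gata4 KD libraries above every control. Ect2, the exchange factor that activates RhoA at the cell equator, ran from 41.4 CPM in Gata4 KD c to 58.7 CPM in control b.

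Mki67 encodes Ki-67, a coat of mitotic chromosomes widely used to mark cycling cells. It was at 250.2, 231 and 286 CPM in control, 277, 290.2 and 200.4 CPM in Gata4 KD and 300.3, 208 and 226 CPM in Tbx20 KD. Both knockdown groups held values above and below all controls. The log2 fold change was 0.000473 (SE 0.15) in Gata4 KD, with an adjusted p of 1 by edgeR, and the 95% interval ran from -0.34 to 0.34. In Tbx20 KD it was -0.05 (SE 0.14, 95% interval -0.38 to 0.27), with an adjusted p of 1 by edgeR. Both changed sign when single libraries were left out, with ranges of -0.10 to 0.18 in Gata4 KD and -0.23 to 0.05 in Tbx20 KD. Top2a was at 266, 267 and 257 CPM in control, 285, 269.6 and 211 CPM in Gata4 KD and 304, 248 and 242 CPM in Tbx20 KD. The controls of Top2a lay close together, and the extremes were again Gata4 KD c and Tbx20 KD a.

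**Figure D3:**
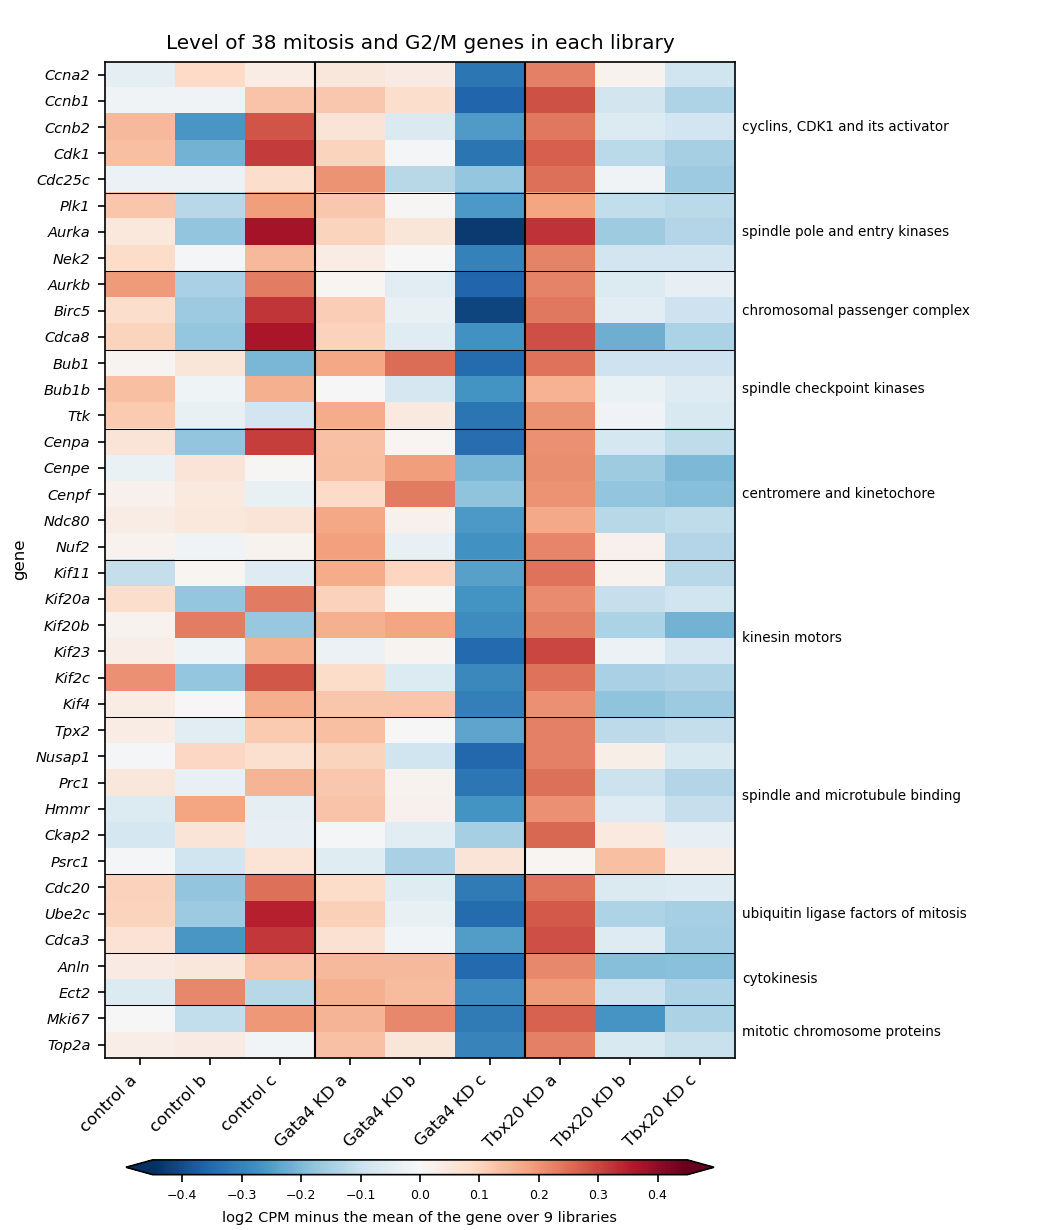
Level of each member in each of the 9 libraries, as log2 CPM minus the mean of that gene over the libraries (red above, blue below). The column of Gata4 KD c is blue in 37 of 38 rows, that of Tbx20 KD a is red in 38, and control b and control c differ by gene.

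Single libraries stood apart within their groups. Gata4 KD c was the lowest of the 9 libraries for 34 of 38 members, beside 12.4% of all 14782 genes kept over the 9 libraries. Tbx20 KD a was the highest for 18 and control c for 14, beside 6.11% and 21.7% of all genes. On average over members, Gata4 KD c had a mean deviation of -0.29 from the gene means on the log2 scale (37 of 38 members below), and Tbx20 KD a 0.23 (38 of 38 above). The other 7 libraries had means between -0.11 and 0.12. Summed over members the level was 2328 CPM in Gata4 KD c against 3067 and 2963 CPM in the other Gata4 KD libraries, and 3335 CPM in Tbx20 KD a against 2645 and 2610 CPM in the other Tbx20 KD libraries.

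Within groups the members varied together. The median Pearson correlation between pairs of members, computed on deviations from the group means, was 0.83 over 703 pairs, against 0.0021 over all pairs of the 14782 genes. It was not particular to the members, since the value was also 0.83 among the 49 genes of DNA replication and S phase and 0.72 among the 74 other mitosis genes. All pairs share the same 9 libraries, so the value describes these libraries and carries no p. Over the 9 libraries, 18 members had a correlation of 0.9 or more with the mean of the other members and 29 had 0.8 or more. The median pooled SD within groups was 0.19 on the log2 scale for members and 0.15 for all genes. The share of a member's variance that lay between the 3 groups had a median of 8.32%, against 24.6% for all genes. Bub1b (44.7%), Ckap2 (36.8%) and Psrc1 (30.1%) had the highest shares, and Ect2 had 0.434%.

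Gata4 KD c was also the lowest library for other mitosis genes, S phase genes and the genes that control mitotic transcription, while the highest was Tbx20 KD a for the first and last of these and control c for S phase. The 74 other mitosis genes had mean deviations of -0.27 in Gata4 KD c and 0.22 in Tbx20 KD a on the log2 scale, and the 49 genes of DNA replication and S phase -0.32 and 0.17. The 23 genes that control mitotic transcription had -0.13 and 0.10, and the 13 G1 cyclins and CDK inhibitors -0.01 and -0.00310. None of these 4 lists held a gene past the threshold in any of the 3 comparisons by the edgeR quasi-likelihood test, and nor did the 24 p53 targets. Over all genes tested the share called was 0.38% in Gata4 KD against control, 0.00687% in Tbx20 KD against control and 1.44% between the knockdowns. At such shares the lack of called genes in lists this short says little about them. Median log2 fold changes in Gata4 KD and in Tbx20 KD were -0.08 and 0.00241 for the other mitosis genes and -0.15 and -0.06 for DNA replication and S phase. Spc24, a kinetochore subunit, had the smallest adjusted p of the other mitosis genes, 0.108 in Gata4 KD against Tbx20 KD by edgeR, at a log2 fold change of -0.32. Ccnd1, the cyclin that starts G1 progression, had a log2 fold change of -0.25 in Gata4 KD with an adjusted p of 0.423 by edgeR.

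**Figure D4:**
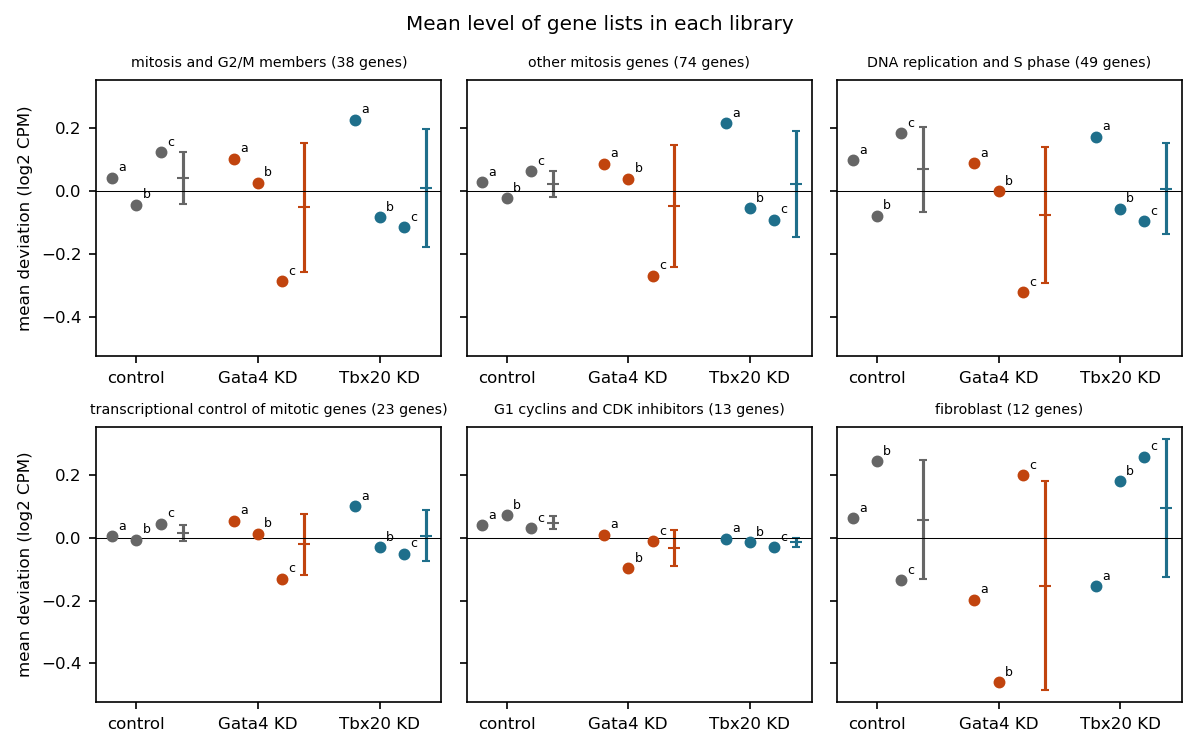
Mean deviation of log2 CPM from each gene's mean over 9 libraries, for the members and other lists. Points are libraries a, b and c of each group, and bars give the group mean and SD (n = 3). Gata4 KD c lies lowest and Tbx20 KD a highest in the panels of members and other mitosis genes, at -0.29 and 0.23 for the members. The fibroblast panel has Gata4 KD c at 0.20, below Tbx20 KD c at 0.26 and control b at 0.24, and its lowest point is Gata4 KD b at -0.46.

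Markers of the labelled cell type were present, with all 12 fibroblast markers above the filter and Col1a1 at 2672 to 4330 CPM. On the log2 scale the fibroblast list was at 0.20 in Gata4 KD c and -0.15 in Tbx20 KD a, opposite in sign to the members. Neither library was extreme for this list. Tbx20 KD c (0.26) and control b (0.24) were higher, and Gata4 KD b (-0.46) and Gata4 KD a (-0.20) were lower. The members were at 0.03 in Gata4 KD b. The summed level of the fibroblast list was 15814 to 17637 CPM in control, 11664 to 16236 CPM in Gata4 KD and 15212 to 18380 CPM in Tbx20 KD. Of 14 leukocyte markers 8 passed the filter, with Cd3e and Nkg7 at 0 in every library and a summed level of 40.5 to 48.7 CPM in control, 26.2 to 43.2 CPM in Gata4 KD and 40.0 to 56.6 CPM in Tbx20 KD. Of 10 endothelial markers 9 passed, with summed levels of 40.3 to 59.8, 42.3 to 61.3 and 44.9 to 57.3 CPM. In Gata4 KD c, where the members were low, all 9 were above their own means, with a mean deviation of 0.34 on the log2 scale, the highest of the 9 libraries. The 6 of 8 pericyte and smooth muscle markers that passed were also highest there, at 0.31. Of 9 epicardial markers 7 passed, with mean deviations of -0.50 in Gata4 KD c and 0.31 in Tbx20 KD a. Their summed level was 96.1 to 116.6 CPM in control, 98.2 to 158.4 CPM in Gata4 KD and 100.4 to 125.9 CPM in Tbx20 KD. Gata4 KD c had the highest sum. In Gata4 KD against control 4 of the 7 were higher and 3 lower, with a median log2 fold change of 0.13. Lrrn4 fell in Gata4 KD by 3.38 on the log2 scale with an adjusted p of 0.00272 by edgeR. Aldh1a2 rose there by 0.75 with an adjusted p of 0.298 by edgeR. Of 14 cardiomyocyte markers 3 passed, Myl3, Nppa and Pln were at 0 in every library, and Tnnt2 fell in Gata4 KD by 1.64 on the log2 scale with an adjusted p of 0.00272 by edgeR. The part of other cell types in the levels of the members was not tested.

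The control libraries also differed from one another, and the difference went with transcript length. Control b was below control c for 26 of 38 members, with a median difference of -0.16 on the log2 scale, beside -0.03 over 14591 genes with a length. Cdca3, Aurka and Ccnb2, with longest transcripts of 1976, 1905 and 1531 bases, were lowest in control b relative to control c, at 0.67, 0.68 and 0.69 times its level. Kif20b, Ect2 and Bub1, with 5564, 4086 and 3421 bases, were highest, with log2 differences of 0.40, 0.34 and 0.26. The median difference was -0.31 for the 19 members with shorter transcripts and -0.03 for the 19 with longer ones. Over members the difference had a Pearson correlation of 0.45 with log2 length (Spearman 0.48, 38 genes), and over all 14591 genes 0.22 (Spearman 0.29). These correlations are across genes, which are not independent replicates, and were computed after the levels were seen. The longest annotated transcript need not be the one expressed, which was not examined. By these lengths, several members did not follow the order. Mki67, Cdk1, Cenpa and Kif20a, with 10061, 4375, 3806 and 3674 bases, were at 0.81, 0.69, 0.71 and 0.75 times in control b, while Bub1 and Ckap2 (2593 bases), both shorter than the members' median of 3473.5 bases, were higher in control b.

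**Figure D5:**
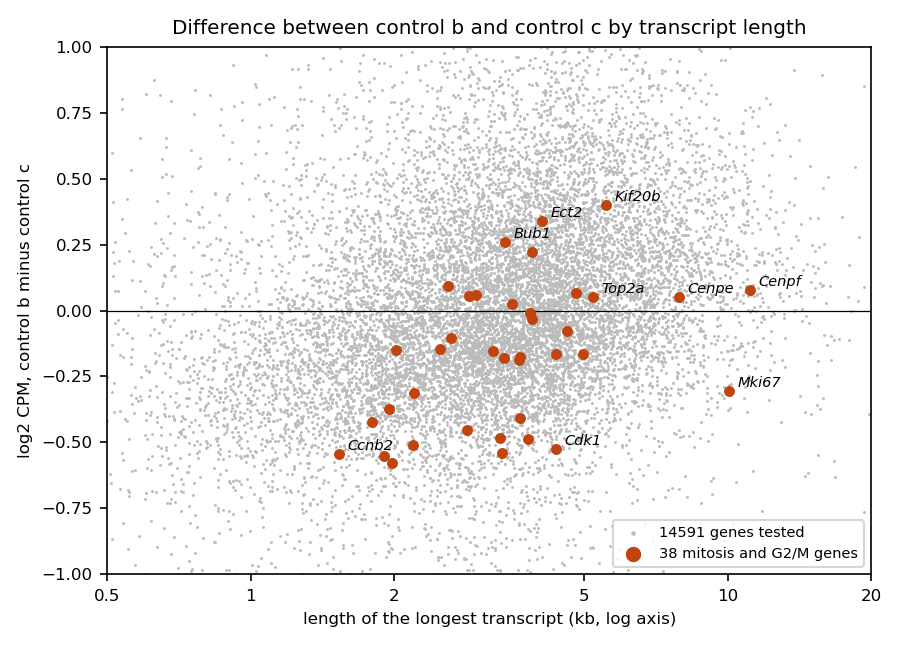
Difference in log2 CPM between control b and control c against the length of the longest transcript (log axis), for 38 members (large points) and 14591 tested genes (small points, of which 905 lie beyond the axes and are not drawn). Ccnb2 lies at -0.54 and Kif20b at 0.40.

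Outside the members, the 10 genes whose log2 CPM followed the mean of the members most closely over the 9 libraries were Lsm2, Aunip, Mtbp, Rnd1, Wdhd1, Snrpd3, E2f7, Ticrr, Prpf4 and Dnmt1, with Pearson r from 0.968 to 0.982. Aunip, named for its interaction with Aurora A, ran from 4.26 CPM in Gata4 KD c to 8.28 CPM in Tbx20 KD a. Ticrr, a factor that starts replication, reached 34.9 CPM in Tbx20 KD a, and Dnmt1, the maintenance DNA methyltransferase, ran from 153 to 198 CPM. Of the 100 genes with the highest correlation, 18 were on the list of other mitosis genes, 14 on that of DNA replication and S phase, and 65 on none of the lists. These values describe 9 libraries and no p was attached to them.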

How the data were processed

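RNA from 9 libraries, 3 per group as named by the labels' titles, was read as 75 bp single-end reads after polyA selection (KAPA mRNA HyperPrep). Per the study's methods, the authors trimmed reads by quality and estimated abundance per gene with RSEM over Bowtie2, with strand set, on GRCm38. The submitters' processing notes name mm9, Bowtie and RSEM. The deposited table holds expected counts per gene as whole numbers, not normalized. RSEM divides reads among similar genes, so genes with copies carry added error. Symbols and lengths came from GENCODE M21 (GRCm38). The longest transcript was taken over all annotated transcripts of a gene, whether or not these cells express it, so levels per kilobase carry that limit.

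Each comparison used the 6 libraries of its groups in edgeR 4.0.16 (R 4.3.3): filterByExpr, TMM factors, glmQLFit and glmQLFTest with Benjamini-Hochberg adjustment over all genes, threshold 0.05, no covariate. Log2 CPM used a prior count of 2. Every replicate pair differed by more than sampling noise (chi-square per degree of freedom 5.90 or more). The study describes 3 biological replicates per condition, but the sources read do not say that they came from separate animals, so p-values measure only the spread between these samples. The procedure was tested on simulated counts, with planted changes larger than the fold change of any member and with noise drawn separately for each gene. That check therefore does not show whether changes as small as those of the members, in genes that move together, would be found. Alternatives were DESeq2 1.42.0, limma-voom (limma 3.58.1), an exact test, library size alone, other filters, 1 fit of all 9 libraries, the replicate letter as a block, leaving out each library and, added after the data were seen, leaving out Gata4 KD c and Tbx20 KD a together. The members and the gene lists were chosen with earlier results of these data known.

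Values in every library are given for Ccnb1, Plk1, Aurkb, Bub1, Cenpf, Kif11, Tpx2, Cdc20, Anln, Mki67, Top2a, Cdk1 and the members with the highest and lowest fold change in each comparison. Of other lists, the genes called and then those with the smallest p could be named, up to 4 per list, with the 10 genes most like the members. Psrc1 was also given in full after its values were seen, because it had the lowest correlation with the other members. Promoter windows came from RefSeq, and Ccna2, Aurkb, Kif20a, Cdc25c and Tpx2 had none in the table used. Depth limits little here, since counting error alone is small beside the spread between libraries at these counts.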

Additional observations from a re-analysis of the deposited data

How the results depend on the processing

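No member was called in any comparison under the other tools, filters and scalings, with 1 library left out, or with the replicate block. Many of these fits called few genes of any kind. With 1 library left out, from 6 of 14642 to 189 of 14674 genes were called in Gata4 KD against control. The range was 1 of 14690 to 5 of 14790 in Tbx20 KD against control and 22 of 14732 to 801 of 14656 between the knockdowns. Where so few genes were called, 0 members says little about them. The exception to the 0 was the comparison of the knockdowns without both Gata4 KD c and Tbx20 KD a, with 10 members called. That fit was added after the data were seen. Its libraries were left out by their levels of the members, so it is no test of a difference in them. Its median was 0.16, with log2 fold changes of 0.0353 for Kif23, 0.339 for Cenpf, 0.378 for Mki67, 0.199 for Ccnb1 and 0.463 for Tbx20. The labels reuse the letters a, b and c across groups, but same-letter libraries did not deviate together (correlations from -0.22 to 0.28 over the 3 comparisons), so the letters were not treated as pairs. With the replicate block, 0 members were called in each comparison and the median log2 fold changes were -0.10, -0.03 and -0.07. Leaving out each library in turn gave medians of -0.143 to 0.0307 in Gata4 KD against control, -0.14 to 0.0387 in Tbx20 KD against control and -0.159 to 0.0609 between the knockdowns, so each median changed sign.

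Mki67 in Gata4 KD against control, at 0.000473, was -0.0118 with library size alone, -0.0012 with no filter, -0.000137 with at least 10 counts in every library, -0.0116 with the replicate block and -0.0127 with limma-voom, and -0.0987 to 0.176 with 1 library left out. With 1 library left out, Mki67 ranged from -0.227 to 0.0501 in Tbx20 KD against control and from -0.0407 to 0.24 between the knockdowns, Ccnb1 from -0.136 to 0.0922, -0.131 to 0.0944 and -0.152 to 0.0727 in the 3 comparisons, Kif23 from -0.26 to -0.0608 between the knockdowns, Bub1 from -0.0225 to 0.28 in Gata4 KD and Cdca8 from -0.282 to 0.0406 in Tbx20 KD. Tbx20 passed the threshold in Tbx20 KD against control with DESeq2 (log2 fold change -1.35), no filter (-1.34) and the exact test (-1.35), and between the knockdowns with DESeq2 (0.83) and the exact test (0.84), where it ranged from 0.593 to 1.02 with 1 library left out. Over all genes tested, 55 were called in Gata4 KD against control, 1 in Tbx20 KD against control and 208 between the knockdowns, against 273, 10 and 761 with DESeq2, 250, 8 and 729 with the exact test, 121, 2 and 324 with no filter, 148, 1 and 191 in 1 fit of all 9 libraries and 5, 2 and 101 with the replicate block. The cause was not tested. Over the union of exons the median level in control was 12.7 rather than 16.9 CPM per kb, since the union is longer than the longest transcript. In the 250 bases before the start alone, 33.3% of member windows held a CHR, since many begin at, across or after the start. The level of Gata4 KD c and of Tbx20 KD a moved by less than the spread between replicates with library size alone and with a prior count of 0.5. That spread, a pooled SD of 0.17 on the log2 scale, is a wide limit, since it includes these 2 libraries. A minimum of 1 CPM kept all 38 members and so could not change the level.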

Other observations

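The genes that ran most opposite to the members over the 9 libraries were Igsf10, Dchs1, Atp9b, Wdr13, Pcnx, Ksr1, Zfp467, Ly6a, Mgat3 and Txndc16, with Pearson r from -0.97 to -0.93, listed after the data were seen. Ly6a, the stem cell antigen Sca-1 of fibroblasts and progenitor cells, had the highest mean level of these at 386 CPM. Dchs1, a large cadherin of the Fat signalling pathway, had 2.23 CPM.

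The relation of replicate differences to transcript length varied between pairs of libraries. Pearson correlations of the difference with log2 length in Gata4 KD were 0.50 over the 38 members and 0.09 over 14591 genes for b minus a, 0.46 and 0.02 for b minus c, and 0.18 and -0.06 for a minus c. In Tbx20 KD they were -0.30 and -0.02 for b minus a, -0.17 and -0.04 for b minus c, and 0.27 and -0.01 for a minus c. In control they were 0.47 and 0.20 for b minus a, and 0.29 and 0.08 for a minus c.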
